A study of Rattus norvegicus with 9 samples.

Results

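The comparison of spontaneously hypertensive rats (SHR) given dapagliflozin with untreated SHR asked which kidney transcripts differed after 8 weeks of treatment. Each group had 3 kidney RNA-sequencing libraries. The treated rats received dapagliflozin at 10 mg/kg per day for 8 weeks from an age of 3 months, and the untreated SHR received distilled water by mouth. A further group of 3 libraries from untreated Wistar-Kyoto rats (WKY, the normotensive control strain) entered the fit to help estimate the spread, and its values are given beside the others. The labels state distilled water in the protocol and saline in the treatment field, and the strain field names Wistar-Kyoto for every sample, so groups follow the sample titles. The labels count 3 rats in each group without saying which library came from which rat, so the p-values rest on differences among libraries that may be partly technical.

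Of 19367 genes measured, 12894 reached 1 FPKM, a read count corrected for transcript length and for the size of the library, in 3 or more of the 6 SHR libraries, and these were tested. At the edge of that rule, 251 genes reached 1 FPKM in exactly 3 of the 6 libraries (median of their mean levels 1.055 FPKM) and 286 in exactly 2 (0.871 FPKM, not tested).

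Dapagliflozin blocks SGLT2, the sodium-glucose cotransporter of the early proximal tubule encoded by Slc5a2, so that glucose and sodium stay in the tubular fluid and pass to later segments. The brush border of the same segment holds NHE3, the sodium-proton exchanger encoded by Slc9a3. Sodium that leaves the proximal tubule is taken up in the thick ascending limb (NKCC2), the distal convoluted tubule (NCC) and the collecting duct (ENaC), and the collecting duct also controls water and acid excretion. SHR develop high blood pressure spontaneously, and proximal and distal sodium transport have long been studied in this strain.

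The libraries came from kidney tissue by their transcripts: proximal, thick limb, distal and collecting duct markers were abundant, as described below. Slc14a2, the urea transporter of the inner medulla, lay between 0 and 0.14 FPKM in the SHR libraries, and the uroplakins Upk1a, Upk1b, Upk2 and Upk3a of the urothelium at no more than 0.7 FPKM. FPKM sums lay between 565564 and 585524 in the 6 SHR libraries, and read totals are unknown. The most common ratio of low values to those of WKY library 1, a guide to relative depth, lay between 0.966 and 1.09.

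Treated library 1 stood apart from treated libraries 2 and 3. On the first principal component of the 6 SHR libraries, which held 51.1% of the variance, untreated libraries scored -12.1, -22.5 and -7.80, treated library 1 scored -13.9, and treated libraries 2 and 3 scored 21.9 and 34.5. Across genes, which are not independent replicates, treated library 1 correlated at 0.988 with untreated library 3 and at 0.973 and 0.969 with the other treated libraries. The median SD of a gene on the log2(FPKM + 1) scale was 0.160 in the treated group and 0.115 in the untreated group. Each of these is an SD of 3 values. Between treated libraries 2 and 3 the median SD was 0.099, from only 2 values per gene. At equal spread, an SD of 2 values tends to come out lower than an SD of 3. The 0.099 thus does not show that treated libraries 2 and 3 lay closer together than the untreated libraries. Because treated library 1 stood apart, gene lists and the genes the results turn on are also given without it. It was singled out after the data were seen, as the treated library nearest the untreated ones on that component. Leaving it out thus favours a wider gap between the groups, and calls made without it are not independent support.

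With all libraries, 0 of 12894 genes (0.0%) passed an adjusted p of 0.05 (limma, Benjamini-Hochberg adjustment). The lowest value, 0.114, belonged to Slc9a3. Without adjustment 1979 genes (15.3%) had a p under 0.05, 1287 higher (9.98% of genes tested) and 692 lower (5.37%) in treated SHR, and with median-of-ratios scaling the split was 1063 and 954. Every treated library lay above every untreated one for 1644 genes (12.8%) and below for 821 (6.37%), 19.1% in all. Mean log2 levels were higher in treated SHR for 57.7% of genes and lower for 42.3%, with a median log2 change of 0.037. A change of at least 2-fold was measured for 104 genes, 34 higher and 70 lower, and 21 and 15 of these had groups that did not overlap. The 95% interval of a gene's log2 change had a median half-width of 0.282, with quartiles of 0.215 and 0.414.

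Leaving out treated library 1 brought 873 genes (6.77%) past the threshold, of which 436 were higher (3.38%) and 437 lower (3.39%). With any other single SHR library left out, 0 genes passed. In treated library 1 itself, 443 of the 873 lay beyond every untreated library on the same side, 280 lay inside the untreated range, and 150 lay beyond it on the opposite side.

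**Figure D1:**
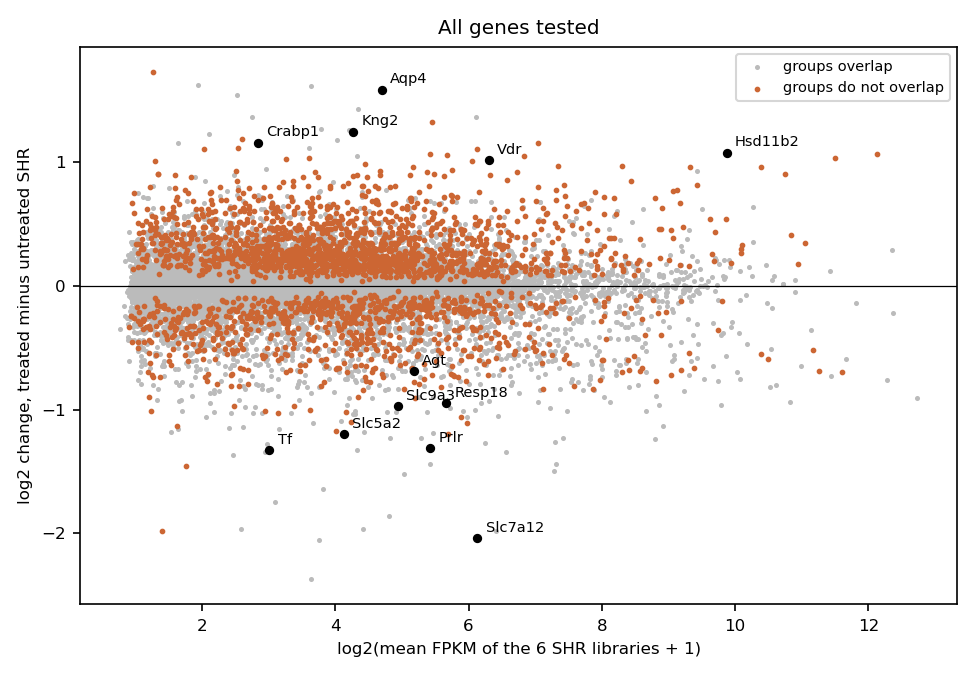
Log2 change of treated against untreated SHR (y axis) by mean level of the 6 SHR libraries (x axis, log2 scale) for the 12894 genes tested. Orange points are the 19.1% of genes whose groups did not overlap, and black points are genes named in the text, from Aqp4 at 1.59 to Slc7a12 at -2.04.

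Slc9a3 (gene ID 24784) had the smallest p of all genes. Its level was 39.8, 44.0 and 35.4 FPKM in the untreated libraries and 20.9, 20.9 and 17.4 in the treated libraries. Every treated library, library 1 included, held clearly less than the lowest untreated library, and all lay below the WKY libraries at 24.9, 26.9 and 23.2 FPKM. The log2 change was -0.97 (95% interval -1.22 to -0.73, adjusted p = 0.114 in limma with Benjamini-Hochberg adjustment). Without treated library 1 it was -1.01 with an adjusted p of 0.0206, and over all alternative settings the adjusted p in limma ranged from 0.0174 to 0.487.

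The 250 bases before the annotated Slc9a3 start are shown because this gene led the comparison, and those of Slc5a2 because it encodes the drug's target. Sequences are from RefSeq on the GRCr8 build, Slc9a3 at chr1:30996003-30996252 on the minus strand and Slc5a2 at chr1:192277371-192277620 on the plus strand, each written 5′ to 3′ on the gene's strand. Capitals mark CACGTG, the E-box that clock factors and other helix-loop-helix proteins bind, and TAANNATTAA (N is any base), taken here from the Slc5a2 promoter as a core of the site of HNF1, a proximal tubule transcription factor.
Slc9a3: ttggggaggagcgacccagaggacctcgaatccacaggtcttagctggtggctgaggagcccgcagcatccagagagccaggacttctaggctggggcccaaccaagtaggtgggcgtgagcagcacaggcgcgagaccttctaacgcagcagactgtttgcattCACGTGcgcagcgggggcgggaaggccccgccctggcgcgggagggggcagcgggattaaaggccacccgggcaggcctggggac
Slc5a2: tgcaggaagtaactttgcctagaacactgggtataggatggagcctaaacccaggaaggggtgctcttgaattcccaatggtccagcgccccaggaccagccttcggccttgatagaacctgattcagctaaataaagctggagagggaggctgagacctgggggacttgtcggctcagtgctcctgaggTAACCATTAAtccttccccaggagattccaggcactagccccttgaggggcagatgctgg
The E-box lies at -85 to -80 and the HNF1 core at -60 to -51, counted from the annotated start. Both patterns were chosen after these 2 promoters had been read, and both strands were searched. The Slc5a2 match to the HNF1 core and the Slc9a3 match to the E-box were thus fixed beforehand. Both are included in the counts of early proximal genes below. Of 10164 tested genes with a promoter entry, 8.69% held CACGTG and 0.876% held TAANNATTAA. The HNF1 core was found in 6 of 21 early proximal tubule genes with an entry (Cubn, Hnf4a, Slc17a3, Slc34a3, Slc5a2 and Slc7a8), in 1 of 15 late proximal genes, in 1 of 11 principal cell genes, in 0 of 12 intercalated cell genes and in 0 of 17 distal salt transport genes. CACGTG was found in 3 of 21 early proximal genes, 1 of 15 late proximal, 1 of 11 principal cell, 1 of 12 intercalated cell, 0 of 17 distal salt transport and 4 of 14 circadian clock genes. A match is a description of letters and not a tested site.

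Among the other carriers of proximal sodium and acid transport, several were lower in treated SHR without passing. The genes named here are from that lower side, and 7 of the 16 tested genes of the list had higher means. Slc13a1, the sodium-sulfate cotransporter, measured 66.5, 55.5 and 57.4 FPKM in untreated and 31.6, 47.8 and 24.6 in treated libraries, with no overlap (log2 change -0.82, SE 0.25). Slc34a1, the main sodium-phosphate cotransporter NaPi-IIa, measured 1752, 1539 and 1835 against 1293, 1344 and 835 FPKM, again without overlap. Pdzk1, the scaffold that holds brush border carriers, measured 317, 318 and 281 against 253, 243 and 131 FPKM. Slc4a4, the basolateral sodium-bicarbonate cotransporter NBCe1, measured 30.3, 21.5 and 20.3 against 6.60, 22.6 and 8.63 FPKM, so that treated library 2 lay within the untreated range.

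Of the 16 tested genes in that list, 9 had lower and 7 higher means. At an unadjusted p under 0.05 were 5 lower and 2 higher (5.37% and 9.98% of all genes). The median log2 change was -0.24 against 0.037 over all genes (-0.27 against 0.077 without treated library 1). Groups did not overlap for 4 lower and 3 higher members (6.37% and 12.8% of all genes). The list mean log2 level was 7.26, 7.21 and 7.22 in untreated and 7.0, 7.08 and 6.9 in treated libraries. The summed level, which abundant members dominate, was 7204, 7163 and 7086 FPKM in untreated and 6944, 7330 and 7919 in treated libraries. The exchanger's regulatory factor NHERF1 (listed as Slc9a3r1) measured 362, 434 and 393 FPKM in untreated and 455, 262 and 218 in treated libraries, with treated library 1 highest of all 6.

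**Figure D2:**
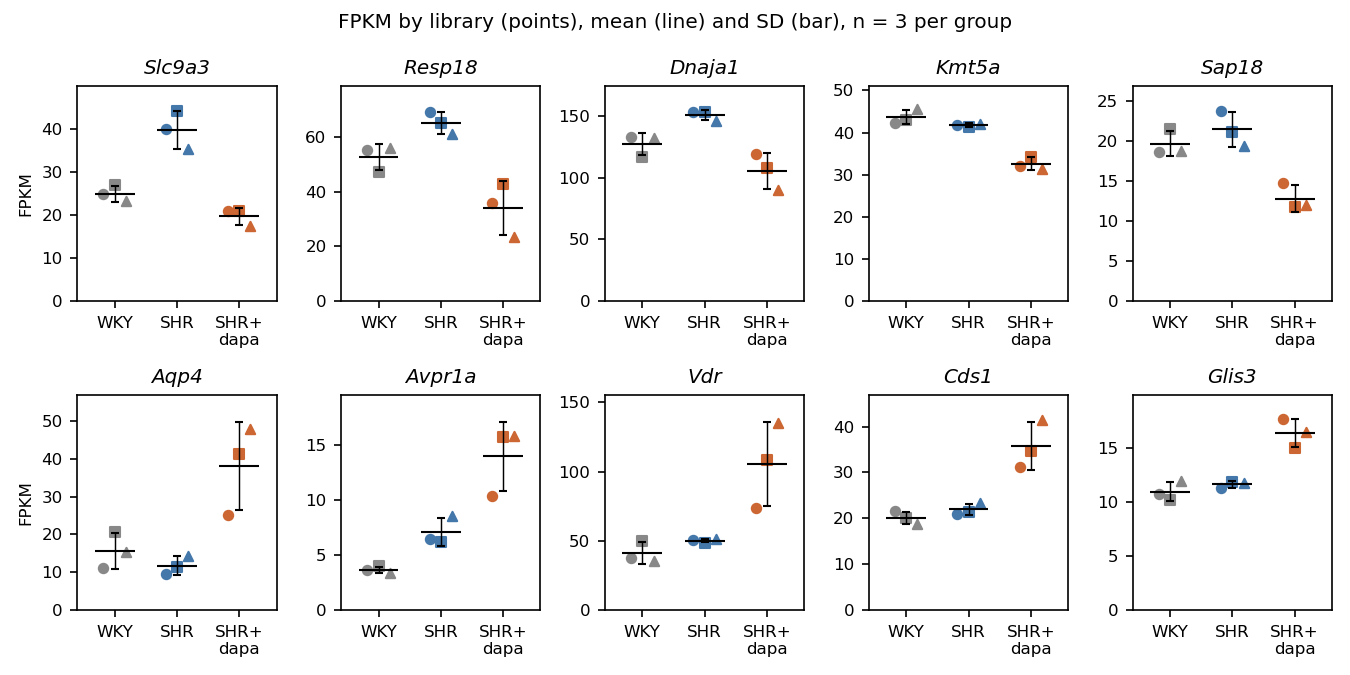
FPKM of 10 genes in each library (points; circle, square and triangle are libraries 1, 2 and 3), with mean and SD, n = 3 per group; the y axes start at 0. Slc9a3, Resp18, Dnaja1, Kmt5a and Sap18 (top) lay lower in every treated library than in every untreated SHR library, and Aqp4, Avpr1a, Vdr, Cds1 and Glis3 (bottom) lay higher.

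Slc5a2, the target transcript, differed more between libraries of a group than between groups. It measured 42.9, 23.7 and 2.69 FPKM in untreated and 0.63, 20.8 and 8.35 in treated SHR, and 9.75, 70.2 and 43.5 in WKY. Groups overlapped, and the 95% interval of the log2 change ran from -3.88 to 1.48, so neither a large fall nor a rise lay outside it. Slc5a12, a sodium-lactate carrier, had the same order of libraries within each group, at 9.86, 4.93 and 0.86 FPKM in untreated and 0.23, 5.26 and 2.16 in treated SHR. Slc5a1, the late proximal carrier SGLT1, measured 10.8, 10.0 and 10.4 against 14.6, 7.50 and 7.72 FPKM (95% interval of the log2 change -0.71 to 0.47).

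Of the 15 sugar carriers only Slc2a1, Slc2a8 and Slc2a12 had higher means in treated SHR. Slc2a2, the basolateral GLUT2, measured 17.5, 20.2 and 22.3 FPKM in untreated and 19.1, 13.9 and 10.3 in treated libraries (log2 change -0.48, adjusted p = 0.294; -0.69 and 0.0350 without treated library 1, limma with Benjamini-Hochberg adjustment). Slc2a9, the urate carrier GLUT9, was the only member whose groups did not overlap, at 5.35, 6.00 and 6.81 against 4.92, 4.35 and 2.88 FPKM. Slc2a5, the fructose carrier GLUT5, measured 36.5, 44.4 and 39.6 against 50.7, 16.5 and 17.2 FPKM, with treated library 1 above every untreated library. Slc2a1, the widespread GLUT1, measured 33.8, 39.8 and 37.6 against 42.8, 39.0 and 51.9 FPKM, with overlap. In all, 12 of the 15 had lower means. At an unadjusted p under 0.05 were 3 lower and 1 higher (5.37% and 9.98% of all genes), and 1 lower lacked overlap (6.37%). The list mean lay lower in every treated library than in any untreated one.

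Means of proximal tubule genes were mostly lower after treatment, and none passed with all libraries. Of 22 early proximal genes 21 had lower means, 7 of them at an unadjusted p under 0.05 and 3 without overlap of groups (5.37% and 6.37% of all genes), with a median log2 change of -0.65, or -0.70 without treated library 1. Their mean log2 level was 7.08, 6.89 and 6.68 in untreated and 6.21, 6.66 and 5.81 in treated libraries, so all treated libraries lay below. All 19 tested late proximal genes had lower means, 2 at an unadjusted p under 0.05 and 1 without overlap, with a median of -0.59, or -0.88 without treated library 1. Their mean level was 6.94, 7.11 and 7.0 in untreated and 7.12, 6.07 and 5.95 in treated libraries, so treated library 1 lay above every untreated library. In bulk tissue, fewer cells of a type and less RNA per cell cannot be told apart.

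Gene by gene the split was wide. Gatm, the first enzyme of creatine synthesis, measured 1088, 616 and 534 FPKM in untreated and 315, 812 and 237 in treated libraries, with treated libraries 1 and 3 lowest. Slc7a7, a basolateral amino acid exchanger, measured 43.2, 27.0 and 13.5 against 5.06, 34.6 and 11.5 FPKM in the same pattern. Slc7a13, a cystine carrier of the late segment, measured 549, 700 and 499 FPKM in untreated and 839, 110 and 196 in treated libraries, which was the reverse for treated libraries 1 and 2. Slc7a12, an amino acid carrier gene of the late list, had the lowest change of both proximal lists at a log2 change of -2.04, with 101, 156 and 47.7 against 86.0, 7.10 and 15.01 FPKM. Without treated library 1, 7 early and 8 late genes were called lower and 0 higher (3.39% and 3.38% of all genes).

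The transcription factor gene Hnf4a, which maintains proximal tubule identity, measured 184, 212 and 186 FPKM in untreated and 187, 128 and 77.2 in treated libraries, and was called without treated library 1 (adjusted p = 0.0403 in limma with Benjamini-Hochberg adjustment). Prlr, the prolactin receptor, measured 44.9, 68.3 and 62.5 against 44.0, 14.9 and 17.4 FPKM, without overlap. Khk, the ketohexokinase that starts fructose breakdown, measured 297, 334 and 297 against 267, 178 and 128 FPKM, also without overlap. The 3 early list genes whose groups did not overlap were Slc9a3, Slc34a1 and Fbp1.

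**Figure D3:**
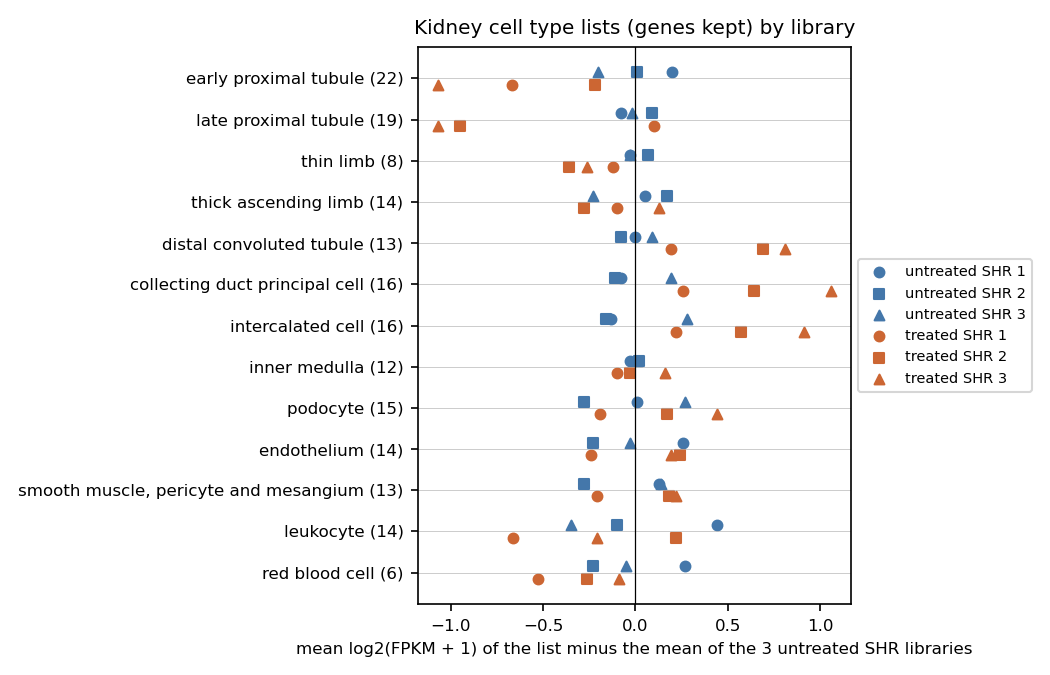
Mean log2(FPKM + 1) of each cell type list in each SHR library, as the difference from the mean of the 3 untreated libraries (x axis); the number of tested genes is in brackets. Early proximal genes lay at -0.67, -0.22 and -1.07 in treated libraries 1 to 3, late proximal genes at 0.10, -0.95 and -1.07, and collecting duct principal cell genes at 0.26, 0.64 and 1.06.

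Genes of the distal nephron were higher in treated SHR, most in treated library 3 and least in treated library 1. Of 13 distal convoluted tubule genes 12 had higher means, 8 at an unadjusted p under 0.05 and 7 without overlap (9.98% and 12.8% of all genes), with a median log2 change of 0.56. Without treated library 1 the median was 0.73 and 6 genes were called, all higher (3.38% of all genes). Slc12a3, the thiazide-sensitive cotransporter NCC, measured 470, 375 and 461 FPKM in untreated and 473, 832 and 837 in treated libraries, with treated library 1 just above the highest untreated value. Wnk1, a kinase that governs NCC, measured 120, 117 and 126 against 153, 233 and 276 FPKM. Klhl3, the ubiquitin ligase adaptor that removes WNK kinases, measured 13.4, 11.8 and 13.9 against 16.1, 35.0 and 34.3 FPKM. Slc8a1, the sodium-calcium exchanger NCX1, measured 38.8, 34.9 and 51.6 against 53.9, 112 and 123 FPKM, and Trpv5, the apical calcium channel, 8.33, 6.93 and 9.93 against 10.3, 15.4 and 18.1. S100g, a calcium-binding protein, was the only tested member with a lower mean, at 12.9, 19.9 and 8.99 against 17.6, 12.3 and 8.70 FPKM.

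All 16 collecting duct principal cell genes had higher means, 11 at an unadjusted p under 0.05 and 10 without overlap (9.98% and 12.8% of all genes), at a median of 0.66. Without treated library 1 the median was 0.86 and 5 genes were called, all higher (3.38% of all genes). Aqp4 (gene ID 25293), a basolateral water channel, showed the largest change at 9.51, 11.3 and 14.4 FPKM in untreated and 25.2, 41.2 and 47.8 in treated libraries (log2 change 1.59, 95% interval 0.97 to 2.21, adjusted p = 0.276 in limma with Benjamini-Hochberg adjustment). Its lowest treated value was well above its highest untreated value and above the WKY libraries at 11.2, 20.7 and 15.2 FPKM. Aqp2, the vasopressin-regulated apical water channel, measured 448, 502 and 519 against 626, 877 and 1168 FPKM, and Aqp3 135, 137 and 135 against 159, 220 and 276.

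The ENaC subunit genes lay higher in every treated library. Scnn1a measured 95.7, 89.2 and 91.8 FPKM in untreated and 112, 156 and 241 in treated libraries. Scnn1b measured 99.7, 87.5 and 137 against 155, 215 and 275 FPKM, and Scnn1g 50.5, 46.0 and 66.2 against 81.4, 89.0 and 141. Hsd11b2, which inactivates corticosterone in these cells, measured 569, 495 and 709 against 887, 1244 and 1707 FPKM, and Nr3c2, the mineralocorticoid receptor gene, 12.6, 11.1 and 13.6 against 14.7, 18.2 and 22.6. Sgk1, an aldosterone-induced kinase, did not follow: it measured 89.0, 92.8 and 80.5 against 39.2, 120 and 158 FPKM, with treated library 1 below and libraries 2 and 3 above every untreated library.

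All 16 intercalated cell genes also had higher means, 12 at an unadjusted p under 0.05 and 5 without overlap (9.98% and 12.8% of all genes), at a median of 0.62. Without treated library 1 the median was 0.82 and 6 genes were called, all higher (3.38% of all genes). Rhcg, an ammonia channel, measured 220, 216 and 289 FPKM in untreated and 322, 429 and 592 in treated libraries. Slc26a4, the chloride-bicarbonate exchanger pendrin, measured 124, 104 and 160 against 163, 214 and 274 FPKM. Atp6v0a4, a proton pump subunit, measured 220, 222 and 261 against 274, 361 and 430 FPKM, and Aqp6, an intracellular channel of acid-secreting cells, 143, 164 and 151 against 189, 229 and 295. Foxi1, the transcription factor of intercalated cells, measured 65.9, 67.2 and 134 against 102, 130 and 173 FPKM, with untreated library 3 above 2 treated libraries.

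The list means of distal convoluted, principal and intercalated cell genes were ordered alike in the treated libraries, and untreated library 3 was the highest of its group in all 3 lists. The principal cell mean log2 level was 5.54, 5.51 and 5.81 in untreated and 5.88, 6.26 and 6.68 in treated libraries, and the intercalated mean 6.51, 6.48 and 6.92 against 6.86, 7.21 and 7.55. The distal salt transport list, which draws on several of these segments, had 22 higher and 3 lower means among 25 genes. Of these, 13 were higher and 2 lower at an unadjusted p under 0.05 (9.98% and 5.37% of all genes). The list's median log2 change was 0.52. Without treated library 1 it was 0.67, with 6 genes called higher and 1 lower (3.38% and 3.39% of all genes). The water channel and vasopressin receptor list had 9 higher and 4 lower means among 13, at a median of 0.48, or 0.66 without treated library 1. Against the untreated mean, treated libraries 1 to 3 differed by -0.67, -0.22 and -1.07 in the early proximal list and by 0.10, -0.95 and -1.07 in the late proximal list. The late list thus ran opposite to the distal lists over the treated libraries, and the early list did not, being lower in treated library 1 than in 2. The part of the proximal lists in these differences was not tested.

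The thick ascending limb did not share this direction. Of its 14 genes 7 had higher and 7 lower means, with a median of -0.03, or -0.04 without treated library 1. At an unadjusted p under 0.05 were 2 higher and 3 lower (9.98% and 5.37% of all genes). Slc12a1, the loop diuretic target NKCC2, measured 323, 363 and 167 FPKM in untreated and 204, 104 and 176 in treated libraries, and Umod, the thick limb protein uromodulin, 3758, 4616 and 2107 against 2741, 1332 and 2174, with overlap in each. Bsnd, the chloride channel subunit that the thick limb shares with later segments, measured 94.1, 86.3 and 108 against 116, 151 and 213 FPKM without overlap. Cldn10, a paracellular channel protein, measured 118, 127 and 85.4 against 100, 55.2 and 55.6 FPKM.

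Glomerular, vascular and blood cell markers overlapped between the groups. Over all genes, 9.98% were higher and 5.37% lower at an unadjusted p under 0.05, and 12.8% and 6.37% lacked overlap. At these shares few members of lists of this size would be counted, so low counts say little. Of 15 podocyte genes 14 had higher means, but 0 reached an unadjusted p of 0.05 or lacked overlap. Their median of 0.14 was 0.34 without treated library 1 (0.037 and 0.077 over all genes). Of 14 endothelial genes 9 were higher, and of 13 smooth muscle, pericyte and mesangial genes 8, with 1 of these, Gata3, at an unadjusted p under 0.05. Gata3 is also counted in the principal cell list. Of 14 tested leukocyte genes 11 had lower means and 0 lacked overlap, at a median of -0.20, or 0.02 without treated library 1; the summed level of the 14 was 393, 222 and 127 FPKM in untreated and 101, 261 and 156 in treated libraries. The macrophage lysozyme Lyz2 measured 280, 154 and 75.5 against 62.9, 170 and 93.1 FPKM. All 6 tested red blood cell genes had lower means with overlap. The thin limb list (8 tested genes) had 3 higher and 5 lower means, the inner medulla list (12) had 7 and 5, and of 7 urothelial genes in the file 1 was tested.

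**Figure D4:**
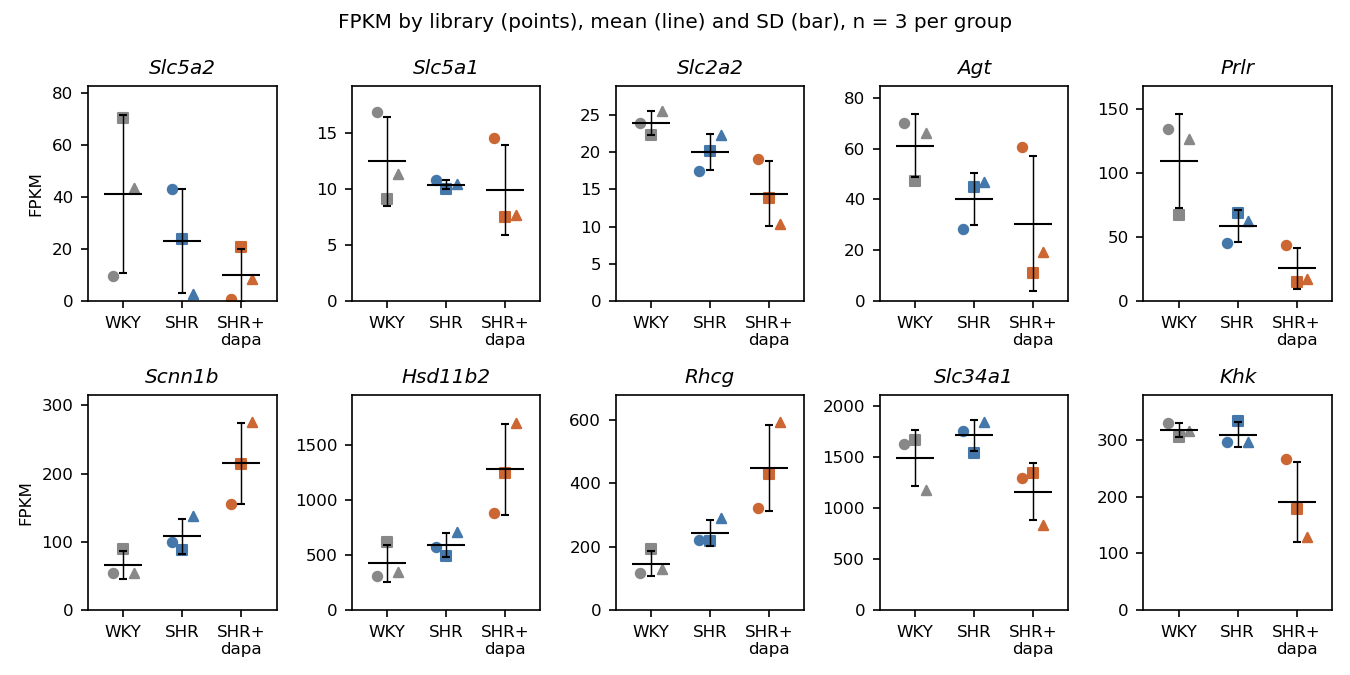
FPKM of 10 nephron genes in each library (points; circle, square and triangle are libraries 1, 2 and 3), with mean and SD, n = 3 per group; the y axes start at 0. Slc5a2, Slc5a1, Slc2a2 and Agt overlapped between untreated and treated SHR, Prlr, Slc34a1 and Khk lay lower and Scnn1b, Hsd11b2 and Rhcg higher in every treated library.

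Outside these segment patterns, several genes differed by a modest but even amount in all treated libraries. Glis3, a zinc finger factor whose loss causes cystic kidneys, measured 11.3, 11.9 and 11.8 FPKM in untreated and 17.7, 15.03 and 16.5 in treated libraries, with treated library 1 the highest. Efna1, an ephrin ligand, measured 16.7, 16.5 and 19.1 against 23.1, 23.7 and 25.9 FPKM, and Magt1, a subunit of the oligosaccharyltransferase, 12.7, 11.9 and 12.5 against 17.1, 17.8 and 17.7. Kmt5a, which adds a methyl group to histone H4, measured 41.8, 41.3 and 42.1 against 32.1, 34.3 and 31.4 FPKM. Lyrm4, which helps build iron-sulphur clusters, measured 30.0, 32.1 and 31.9 against 23.9, 24.4 and 22.2 FPKM. Chordc1, an HSP90 co-chaperone, measured 19.6, 18.8 and 17.0 against 13.8, 13.3 and 13.7 FPKM. In each of these 6 genes treated library 1 lay with the other treated libraries, and the adjusted p was 0.276 with all libraries and between 0.0332 and 0.0446 without treated library 1 (limma with Benjamini-Hochberg adjustment).

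In the other higher genes with the smallest p, treated library 1 was the lowest of the treated libraries but lay above every untreated library. Vdr, the vitamin D receptor gene, measured 50.9, 48.7 and 51.0 FPKM in untreated and 73.9, 108 and 135 in treated libraries. Avpr1a, the V1a vasopressin receptor gene, measured 6.49, 6.18 and 8.50 against 10.4, 15.7 and 15.8 FPKM, and Entpd3, a nucleotide-degrading ectoenzyme, 2.93, 2.57 and 3.13 against 4.78, 6.51 and 8.31. Cds1, a CDP-diacylglycerol synthase, measured 21.0, 21.5 and 23.3 against 31.1, 34.6 and 41.5 FPKM, and Pgam2, a phosphoglycerate mutase, 24.6, 24.5 and 29.9 against 44.2, 56.7 and 70.2. Fem1b, an adaptor of a ubiquitin ligase, was 4.14, 3.67 and 4.89 against 6.36, 7.27 and 6.96 FPKM.

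On the lower side Resp18, a secretory granule protein, measured 69.4, 65.4 and 61.2 FPKM in untreated and 36.1, 42.8 and 23.6 in treated libraries. Tsku, a secreted leucine-rich protein, measured 35.6, 30.5 and 29.6 against 19.5, 21.7 and 15.4 FPKM, and Dnaja1, an HSP40 co-chaperone, 153, 153 and 146 against 119, 108 and 89.8. Sap18, a component of a histone deacetylase complex, measured 23.8, 21.1 and 19.4 against 14.7, 11.7 and 12.01 FPKM. Ankrd33b was 9.21, 9.64 and 8.99 against 6.71, 6.10 and 5.83 FPKM, and Macir 11.0, 10.4 and 8.83 against 7.47, 6.40 and 6.70. All 6 lay lower in every treated library and none passed with all libraries.

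Among the largest changes without overlap, the higher genes included secreted proteins and enzymes. Defb11, a beta-defensin, measured 21.2, 19.8 and 28.7 FPKM in untreated and 38.8, 61.9 and 86.8 in treated libraries, and Car15, a carbonic anhydrase, 71.3, 73.1 and 91.0 against 138, 151 and 259. The kininogen genes Kng2 (9.76, 11.5 and 9.07 against 19.2, 22.5 and 37.3 FPKM) and Kng1 (2.90, 2.40 and 2.18 against 3.73, 7.06 and 12.04) have close copies that can exchange reads, and these values are uncertain. Crabp1, which binds retinoic acid, measured 2.33, 3.30 and 4.31 against 5.27, 8.99 and 12.7 FPKM, with WKY at no more than 0.23. The lower genes of this kind were Tf (transferrin, 8.44, 16.0 and 7.49 against 4.60, 3.45 and 2.43 FPKM), Basp1 (88.9, 87.3 and 70.5 against 69.2, 28.0 and 26.8), C1qtnf3 (9.97, 10.4 and 11.6 against 7.87, 4.23 and 3.00) and the complement gene C5 (15.1, 13.7 and 9.14 against 5.24, 8.22 and 4.61). Olr1331, an olfactory receptor gene of a large family whose reads may be shared, measured 8.62, 3.71 and 7.21 against 3.11, 2.35 and 2.56 FPKM.

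Of 12 tested renin-angiotensin genes 6 had higher and 6 lower means. Agt, the angiotensinogen gene, measured 28.2, 45.0 and 47.0 FPKM in untreated and 60.7, 11.2 and 19.4 in treated libraries, so treated library 1 was the highest and treated libraries 2 and 3 the lowest of the 6 (log2 change -0.69, adjusted p = 0.519; -1.35 and 0.0389 without treated library 1, limma with Benjamini-Hochberg adjustment). Treated library 1 was also the highest of the 6 in the mean of the late proximal list, which holds Agt, and the part of that list in the difference was not tested. Ace, the angiotensin-converting enzyme gene, measured 1.21, 1.04 and 0.89 against 1.25, 1.09 and 0.78 FPKM, with overlap. Atp6ap2, the prorenin receptor and a proton pump accessory protein, measured 93.3, 83.1 and 93.2 against 100, 116 and 143 FPKM without overlap. Enpep, the aminopeptidase that trims angiotensin II, measured 114, 126 and 158 against 147, 78.5 and 72.2 FPKM.

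Of 17 glycolysis genes 16 had higher means, 7 at an unadjusted p under 0.05 and 10 without overlap (9.98% and 12.8% of all genes), at a median log2 change of 0.33. Without treated library 1 the median was 0.49 and 5 genes were called, all higher (3.38% of all genes). Ldha, lactate dehydrogenase A, measured 169, 166 and 177 FPKM in untreated and 207, 234 and 270 in treated libraries, and Pkm, pyruvate kinase, 194, 203 and 229 against 252, 314 and 379. Hk1, the first hexokinase, measured 51.5, 50.5 and 57.9 against 59.7, 68.0 and 84.2 FPKM, and Pfkm, a phosphofructokinase, 40.2, 36.0 and 37.7 against 44.7, 62.6 and 72.2. Gapdh overlapped, at 2654, 2650 and 2531 against 2640, 3129 and 2775 FPKM. Glycolytic enzymes are richer in distal than in proximal tubule, and the principal cell list means given above were higher in the same libraries. Their part was not tested.

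Of 12 gluconeogenesis and fructose genes 7 had lower means, 4 at an unadjusted p under 0.05 and 5 without overlap (5.37% and 6.37% of all genes), at a median of -0.35, or -0.32 without treated library 1. The list mean of treated library 2 lay 0.06 above the untreated mean, within the untreated range, and those of treated libraries 1 and 3 lay below every untreated library. Slc37a4, the glucose-6-phosphate transporter, measured 83.7, 73.5 and 74.6 FPKM in untreated and 52.5, 59.5 and 43.8 in treated libraries. Fbp1, fructose-1,6-bisphosphatase, measured 857, 799 and 744 against 582, 717 and 311 FPKM. Pck1, the rate-limiting phosphoenolpyruvate carboxykinase, did not follow: it measured 842, 887 and 845 against 561, 1259 and 478 FPKM, with treated library 2 the highest of all 6. G6pc, glucose-6-phosphatase, measured 273, 186 and 157 against 92.7, 209 and 71.9 FPKM. These enzymes are proximal, and the early proximal list mean was lowest in the same treated libraries 1 and 3. That list itself holds Fbp1 and Pck1, so the likeness is partly of the same values. The part of that list was not tested.

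Mitochondrial lists had small median log2 changes. The median over all genes was 0.037, or 0.077 without treated library 1. Of 28 fatty acid oxidation genes 14 were higher and 14 lower, with a median of 0.00, or 0.03 without treated library 1. Cpt2, carnitine palmitoyltransferase 2, measured 23.9, 24.7 and 25.2 FPKM in untreated and 27.0, 32.3 and 35.9 in treated libraries, and Slc22a5, the carnitine carrier, 132, 106 and 123 against 97.3, 98.8 and 59.0. Of 49 respiratory chain genes 44 had higher means, as 57.7% of all genes did. Of the 49, 6 were higher at an unadjusted p under 0.05 and 13 without overlap (9.98% and 12.8% of all genes). The list's median was 0.11, or 0.16 without treated library 1. Uqcrc2, a core subunit of complex III, measured 207, 206 and 205 against 239, 253 and 248 FPKM. The treated libraries lay close together and apart from all untreated ones.

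Ketone body genes were 5 higher and 5 lower. Oxct1, the enzyme that lets tissue use ketones, measured 268, 266 and 241 FPKM in untreated and 307, 297 and 300 in treated libraries, and Bdh1, the hydroxybutyrate dehydrogenase, 31.6, 32.2 and 27.6 against 35.2, 33.5 and 42.2, both without overlap. Slc16a1, the lactate and ketone carrier MCT1, measured 10.5, 6.58 and 4.71 against 1.42, 5.82 and 1.80 FPKM with overlap. Of 20 cholesterol synthesis genes 16 had higher means, at a median of 0.11 (0.14 without treated library 1), with Cyp51, lanosterol demethylase, at 14.9, 14.6 and 13.7 against 17.0, 19.1 and 22.8 FPKM. Of 10 ammonia synthesis genes 4 had higher and 6 lower means. Nutrient sensing genes were higher in 16 of 20, at a median of 0.11 (0.17 without treated library 1), and Rptor, the mTORC1 scaffold, measured 7.13, 7.93 and 8.08 against 8.37, 9.51 and 9.41 FPKM.

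**Figure D5:**
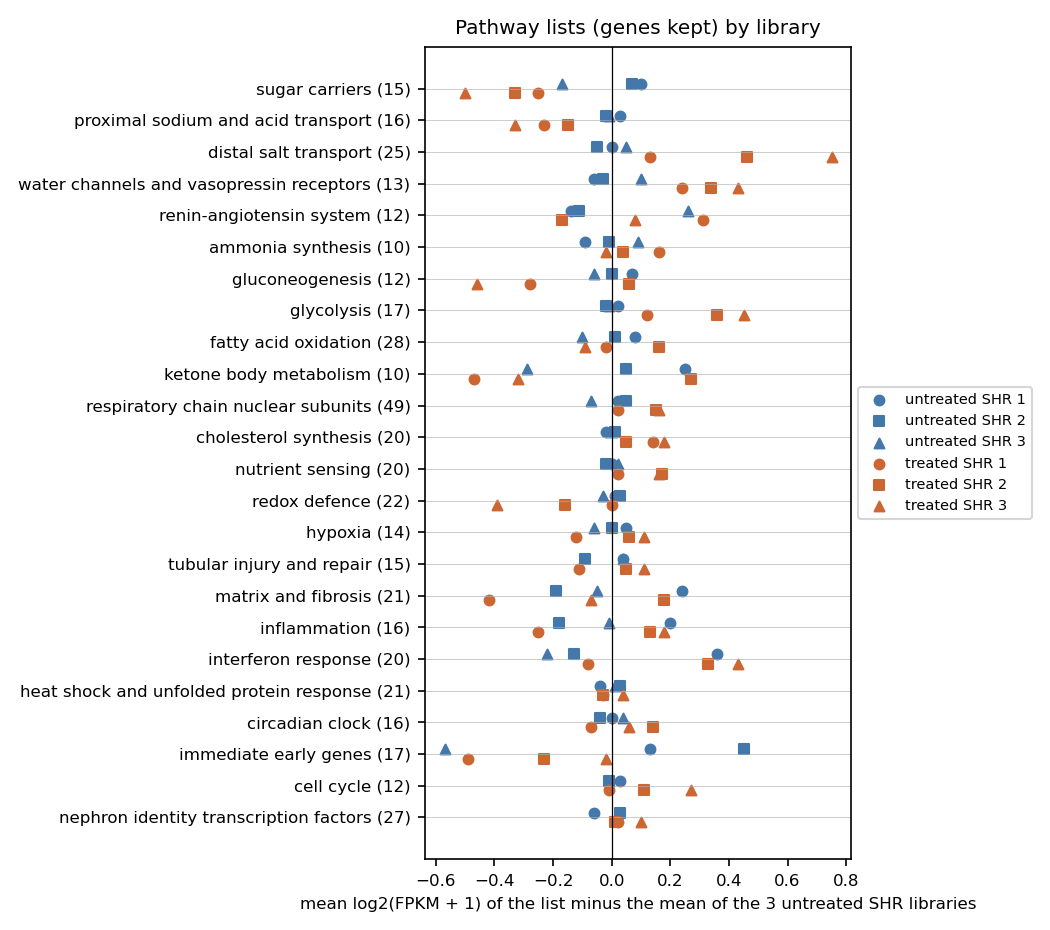
Mean log2(FPKM + 1) of each pathway list in each SHR library, as the difference from the mean of the 3 untreated libraries (x axis); the number of tested genes is in brackets. Glycolysis genes lay at 0.12, 0.36 and 0.45 in treated libraries 1 to 3, gluconeogenesis genes at -0.28, 0.06 and -0.46, and distal salt transport genes at 0.13, 0.46 and 0.75.

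Most injury, fibrosis and inflammation genes overlapped between the groups, as did most of all genes tested. Havcr1 (KIM-1), the proximal injury marker, was below the level for testing, at 1.23, 1.18 and 0.13 FPKM in untreated and 0.18, 0.13 and 0.09 in treated libraries. Lcn2 (NGAL) measured 5.09, 5.26 and 6.08 against 2.58, 5.40 and 6.10 FPKM, and the 15 injury and repair genes tested were 9 higher and 6 lower. At an unadjusted p under 0.05 were 3 higher and 1 lower (9.98% and 5.37% of all genes). Groups did not overlap for 2 higher and 2 lower members (12.8% and 6.37% of all genes). Without treated library 1, 1 was called higher and 3 lower (3.38% and 3.39% of all genes). Spp1, osteopontin, measured 184, 170 and 161 against 201, 312 and 389 FPKM without overlap. Krt18 was also higher without overlap, at 24.5, 20.2 and 30.6 against 30.7, 42.0 and 53.9 FPKM. Fga was lower without overlap, at 4.74, 6.59 and 5.72 against 4.63, 2.88 and 2.07 FPKM. Of 21 matrix and fibrosis genes 9 were higher and 12 lower. Tgfb1 measured 16.7, 11.5 and 13.6 against 10.6, 18.3 and 17.3 FPKM, Col1a1 4.70, 2.41 and 3.80 against 4.54, 5.05 and 3.06, and Col1a2, the partner collagen chain, was lower without overlap at 3.31, 1.96 and 1.21 against 0, 0.77 and 0.93. Of 16 tested inflammation genes 8 were higher and 8 lower, and the chemokine gene Ccl2 measured 2.14, 1.98 and 0.94 against 0.52, 0.56 and 1.05 FPKM.

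Of 20 interferon response genes 19 had higher means, at a median of 0.22, or 0.39 without treated library 1. Only 1 had an unadjusted p under 0.05 and 1 lacked overlap (9.98% and 12.8% of all genes). Against the untreated mean, the list mean lay at 0.36, -0.13 and -0.22 in untreated and -0.08, 0.33 and 0.43 in treated libraries, with overlap. Oas1a, the member without overlap, measured 3.90, 2.52 and 2.28 against 4.79, 4.22 and 7.03 FPKM. Of 22 redox genes 8 were higher and 14 lower: Srxn1, sulfiredoxin, measured 14.8, 12.7 and 16.3 FPKM in untreated and 19.2, 22.8 and 26.8 in treated libraries, while Sod3, the extracellular superoxide dismutase, measured 139, 197 and 192 against 130, 98.5 and 73.1. In the heat shock and unfolded protein list 11 of 21 were higher, and Hspe1, a mitochondrial chaperonin, measured 296, 347 and 270 against 257, 233 and 187 FPKM. Hypoxia genes were 8 higher and 6 lower, and P4ha1, a prolyl hydroxylase of collagen, measured 21.8, 20.5 and 20.3 against 17.1, 16.1 and 17.1 FPKM.

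Clock genes were 8 higher and 8 lower. Nr1d1 (REV-ERB alpha), a repressor driven by the clock, measured 32.4, 36.6 and 48.3 FPKM in untreated and 55.7, 61.9 and 51.2 in treated libraries, and its relative Nr1d2 12.5, 14.1 and 15.6 against 16.9, 19.0 and 17.3, both without overlap. Dbp, another clock output gene, measured 33.0, 49.6 and 67.1 against 59.2, 98.5 and 81.4 FPKM, and Arntl (BMAL1), the activator, 14.0, 8.98 and 9.79 against 9.34, 7.41 and 8.81. The time of day of tissue collection is not given in the sources used here. Of 17 immediate early genes 15 had lower means, at a median log2 change of -0.31, or -0.19 without treated library 1. Only 1, Myc, had an unadjusted p under 0.05 and 3 lower ones lacked overlap (5.37% and 6.37% of all genes). The list mean log2 level overlapped, at 4.58, 4.90 and 3.88 in untreated and 3.96, 4.22 and 4.43 in treated libraries. Myc measured 4.31, 4.20 and 3.91 against 2.38, 2.01 and 1.86 FPKM. Of 12 tested cell cycle genes 9 were higher, with Mcm2, a replication licensing factor, at 6.46, 5.98 and 7.03 against 7.23, 9.21 and 10.96 FPKM. Of 27 nephron transcription factor genes 14 were higher and 13 lower, with Tfcp2l1, a collecting duct factor, at 108, 102 and 130 against 134, 175 and 211 FPKM.

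The WKY libraries put these levels in context, with the reservation that each comparison with untreated SHR uses the same 3 untreated libraries. Slc9a3 was higher in untreated SHR than in WKY by a log2 difference of 0.65, and lower in treated SHR than in WKY, at -0.33. The adjusted p of these 2 differences was 0.0167 and 0.0555. All adjusted p-values of this paragraph are from limma with Benjamini-Hochberg adjustment. For Avpr1a the log2 difference of untreated SHR from WKY was 0.78 and that of treated SHR 1.66 (adjusted p 0.0506 and 0.00115). For Aqp3 the differences were 1.58 and 2.23 (0.00674 and 0.000909), so in both genes the treated mean lay further from WKY. Aqp4 lay at -0.37 and 1.22 (adjusted p 0.472 and 0.0192), and Vdr at 0.30 and 1.32 (0.438 and 0.00708). In both genes the untreated SHR libraries overlapped the WKY libraries. For Sod3 the 2 differences were -1.05 and -1.88 (adjusted p 0.0604 and 0.00341). For Prlr they were -0.85 and -2.16 (0.29 and 0.0119), with untreated SHR again overlapping WKY.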

How the data were processed

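Kidney RNA of 9 libraries was read from 1 end on the BGIseq platform, per the labels' protocols. HISAT2 2.0.4, Bowtie2 2.2.5 and the build Rnor_6.0 are named in the submitters' processing notes, with no role given; for the expression program, the annotation and filters nothing is given in the sources used here. The authors deposited FPKM values, 1 column per library, per the file headers, so a large change in abundant transcripts shifts all others and near-identical genes can exchange reads.

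Values were taken as log2(FPKM + 1), pseudocount 1, so fold changes of weakly expressed genes are understated. Genes with at least 1 FPKM in at least 3 of the 6 SHR libraries were fitted with limma 3.58.1 in R 4.3.3 (group means of all 9 libraries, variance trend, two-sided, Benjamini-Hochberg over all 12894 genes, threshold 0.05). The code was tested on simulated data. Python 3.11.15 made the descriptions and plots.

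Lists (38, with 572 tested genes) were described by counts and medians without a test. The members and lists were chosen with earlier results of these data known. Named genes were the 10 higher and 10 lower by smallest p and the 8 and 8 by largest change without overlap of groups (mean of at least 5 FPKM in the higher group, no placeholder symbols), a fixed set of 11 around the drug, renin-angiotensin and injury genes, and up to 4 per list by smallest p; other list members named in the text were chosen after their values were seen. A few genes that this rule takes are left unnamed, and counts include them. Of tested gene IDs, 12408 matched the RefSeq table of GRCr8, used for promoter sequences.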

Additional observations from a re-analysis of the deposited data

How the results depend on the processing

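Counts of genes depended mainly on single libraries. With 1 SHR library left out in turn, between 0 and 873 genes passed an adjusted p of 0.05 in limma, all 873 of them without treated library 1 and 0 without any of the other 5. The count at an unadjusted p under 0.05 (1979 with all libraries) lay between 888 without treated library 3 and 3585 without treated library 1, with 1192 without untreated library 1 and 1026 without untreated library 2. In a fit of the 6 SHR libraries without treated library 1, chosen after seeing the data, 1290 genes passed and 3776 had an unadjusted p under 0.05. With a replicate block 1 gene passed, Slc9a3, and 2040 had an unadjusted p under 0.05. The numbers were not taken as pairs, since deviations of same-numbered untreated and treated libraries correlated at -0.249, -0.194 and 0.192. Pseudocount, filters, scaling, quantile normalization and the fit of 6 libraries alone left the adjusted count at 0. The 2465 genes without overlap became between 2024 and 2876 with the other filters and scalings. Of the 33 genes named by p or size of change, 29 were called without treated library 1, against 6.77% of all genes. They were picked from these same libraries, so a high share was likely beforehand. The direction of the 33 could not turn when a library was left out, because their groups do not overlap.

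Directions of weak differences turned. Ace went to 0.01 with quantile normalization and ranged from -0.08 to 0.09 over fits with a library left out. Over the same fits Lcn2 ranged from -0.43 to 0.06 (0.06 also in the fit of 6 without treated library 1), Slc5a1 from -0.41 to 0.03, Tgfb1 from -0.02 to 0.35 and Col1a1 from -0.02 to 0.35. The cause was not tested. Without read totals, counting error could not be separated from other spread.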
